A study of Saccharomyces cerevisiae with 58 samples.

Results

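The 60S ribosome assembly factors of Saccharomyces cerevisiae are the proteins that fold, cut and modify the precursor of the large ribosomal subunit and carry it out of the nucleus without becoming part of it. Their mRNAs were followed here through oxidative stress, DNA damage and transcription arrest. The 55 members were taken by gene symbol, and each of them was measured by 1 probe set, so that they make up 55 of the 5716 S. cerevisiae probe sets tested on the Affymetrix Yeast 2.0 array. Sorted by what the proteins do, they are 10 RNA helicases, 5 GTPases and ATPases, 3 methyltransferases, 8 factors bound near the ITS2 spacer and the A3 cut, 12 structural factors of the early particle, 2 factors that load the 5S particle, 5 RNA-binding proteins, 4 placeholder and release factors and 6 transport factors.

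The mutant is the rpb6 strain 212, whose RNA polymerase II subunit Rpb6 carries the substitution Q100R, and the reference is its isogenic parent, the wild type 211 (WY37). Both are MATalpha ura3-52 his3delta200 lys2delta201 ade2, and in the mutant RPB6 is deleted with HIS3 and the rpb6 copy sits on a CEN/LEU2 plasmid. Cells grew in YPD to mid log phase, and each strain gave 4 courses on 58 arrays in all: 7 times over 45 min of 0.3 mM H2O2, 8 times over 180 min of 0.1% MMS, and 7 times over 50 min after 1,10-phenanthroline, which arrests all 3 RNA polymerases, either without H2O2 (the reference decay) or 7 min after it was added. Per the study's methods the mutant grew more slowly. In the arrays used here each course is 1 run with 1 array per time point, and a repeat of the mutant that the study mentions was not analysed here, so that strain, growth rate and culture cannot be told apart.

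Levels are log2 values made by RMA, a normalization that gives all arrays of a set the same overall distribution, so that every change is relative to the average mRNA. RNA came from whole cultures, and a lower level in some cells cannot be told from a lower level in all of them. All 55 members lay above 5.11, the 95th percentile of the 1747 probe sets that the chip carries for S. pombe, in every array, with the lowest level at 5.82 in the wild type during the reference decay. Genes of the MATalpha mating type averaged between 11.6 and 14.0 in both strains and those of the other mating type between 6.38 and 8.40, both strains being MATalpha, and RPO26, the gene of Rpb6, averaged 12.97 ± 0.36 in the mutant and 13.58 ± 0.17 in the wild type (SD, n = 3 each). Over all tested probe sets, the mutant's reference decay array of 20 min lay 9.01% of the way between its 0 and 50 min arrays and that of 10 min lay 31.8% of the way, whereas the wild type's lay at 51.0% and 26.6%. These 2 mutant arrays are therefore out of time order. The main counts of called members and the median half-lives are also given without them, and most other decay values include them.

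In yeast the assembly factors form a large regulon that is transcribed in proportion to growth, together with the ribosomal protein genes, and that is shut down within minutes when cells meet stress or lose nutrients. Making a ribosome takes a large part of the transcription of a growing cell, and the precursor particle passes from the nucleolus through the nucleoplasm to the cytoplasm, shedding factors at each step. These are facts known of yeast in general and were not measured here.

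Before any stress, the assembly factor mRNAs tended to be lower in the mutant, although none of the differences passed the test. Each strain had 3 untreated samples, namely the arrays taken at 0 min of H2O2, of MMS and of the reference decay, and these were compared within each experiment with limma, with p-values adjusted by the Benjamini-Hochberg method over all 5716 probe sets and a threshold of 0.05. Of the members 0 were called, against 1.91% of all tested probe sets, and 29 of the 55 had an unadjusted p under 0.05, as did 25.8% of all. The fitted difference was negative for 54 members with a median of -0.21 on the log2 scale, and 45 members were lower in the mutant in each of the 3 experiments, against 28.5% of all tested probe sets. With a prior that follows intensity, limma called 4 members lower (BRX1, LOC1, NOG1 and NSR1), against 4.2% of all. The same 0 min arrays are the starting points of the stress and decay courses, so that a low start in the mutant also enters its changes from 0 min.

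BMT6, which encodes a methyltransferase of the 25S rRNA, had 8.72, 9.65 and 7.81 in the mutant, against 9.40, 9.87 and 9.26 in the wild type, in the H2O2, MMS and reference decay experiments. NOG2, a GTPase of late nuclear particles, had 11.53, 12.63 and 10.98 in the mutant, against 11.91, 13.01 and 12.06 in the wild type. REI1, which recycles the export factors Arx1 and Alb1 in the cytoplasm, had 10.11, 11.84 and 9.70 in the mutant, against 10.56, 12.08 and 10.69 in the wild type. In each experiment the mutant was the lower strain for these genes, and the fitted differences were -0.78 ± 0.24 for BMT6, -0.61 ± 0.16 for NOG2 and -0.56 ± 0.16 for REI1 (SE), with adjusted p = 0.142, 0.115 and 0.123 from limma. The gap was widest in the reference decay experiment, where all 55 members were lower with a median of -0.34, and it was -0.17 in the H2O2 and -0.12 in the MMS experiment. SSF2 was the only member with a positive difference, 0.10 ± 0.09 (adjusted p = 0.534, limma).

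H2O2 lowered every assembly factor mRNA in the wild type, whereas in the mutant 8 of the 55 passed the test. A response was tested as a smooth curve in time (a natural spline with 3 degrees of freedom), and its size is the largest fitted change from 0 min. In the mutant 8 members were called lower, against 10.3% of all tested probe sets, and in the wild type 55, against 27.7%. An unadjusted p under 0.05 (limma) was found in the mutant for 32 members and for 2220 of all 5716 probe sets. The median fitted change was -0.55 in the mutant and -1.22 in the wild type, and all 55 values were negative in both strains. The lowest measured change had a median of -0.49 (1.40-fold lower) over the members in the mutant and of -1.11 (2.17-fold lower) in the wild type.

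**Figure D1:**
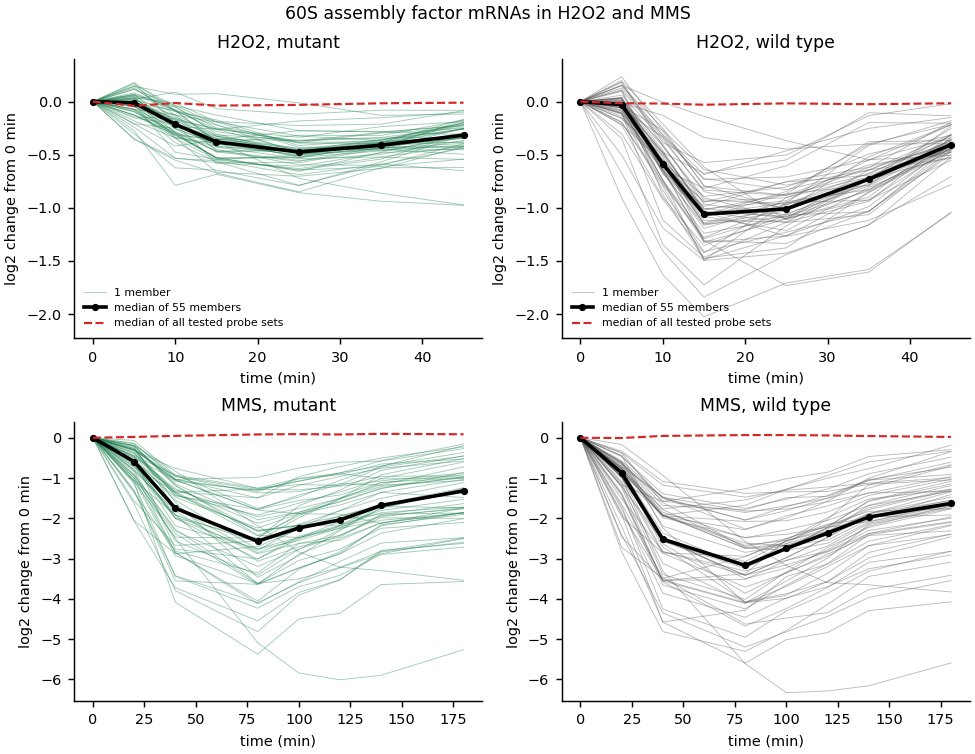
Log2 change from 0 min (y axis) by time in min (x axis) for the 55 members in H2O2 (top) and MMS (bottom), mutant left and wild type right, 1 array per time point. Thin lines are members, the black line is their median, which reached -0.47 at 25 min in the mutant and -1.06 at 15 min in the wild type in H2O2, and the dashed line is the median of all 5716 tested probe sets, which stayed near 0.

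At 5 min the median change was -0.01 in the mutant and -0.03 in the wild type, and 24 members in the mutant and 22 in the wild type still lay above their 0 min level. At 15 min none of the members was over 2-fold lower in the mutant, where 0.437% of all probe sets were, while 34 were in the wild type, against 3.38% of all. The lowest value came at 25 min for 38 members in the mutant, and at 15 min for 35 and at 25 min for 19 members in the wild type. It came later in the mutant for 33 members, earlier for 1 and at the same time for 21. At 45 min the median change from 0 min was -0.32 in the mutant and -0.40 in the wild type, which was a median 65.8% of the smaller lowest change in the mutant and 35.4% of the larger one in the wild type, and none had come back to its 0 min level in either strain. Over all tested probe sets, the mutant's 25 min array lay 90.2% of the way between its 0 and 45 min arrays. The wild type's lay at 126%, so that a later course in the mutant was not particular to the members.

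Among the GTPases and the ATPase, NOG2 stood at 11.53, 11.17, 10.98, 10.86, 10.68, 10.91 and 10.91 in the mutant over 0 to 45 min. In the wild type it stood at 11.91, 11.24, 10.50, 10.07, 10.47, 10.75 and 11.21. The mutant therefore began lower, stayed higher from 10 to 35 min and ended lower. MDN1, the very large ATPase that strips factors from the particle, reached a lowest change of -0.13 in the mutant and -0.55 in the wild type, both at 35 min. In both strains only TIF6 had a smaller change. LSG1, a cytoplasmic GTPase that frees Nmd3, was at its lowest, -0.31, only at 45 min in the mutant, and at -0.79 at 25 min in the wild type.

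BMT6 had 8.72, 8.45, 7.93, 8.04, 7.86, 7.78 and 7.74 in the mutant over the same 7 times. In the wild type it had 9.40, 8.49, 7.77, 7.37, 7.69, 7.82 and 8.35. The wild type lost more and regained part of it, and the mutant was still at its lowest at the last time. The other methyltransferases, NOP2 and SPB1, had lowest changes of -0.50 and -0.47 in the mutant and of -1.14 and -1.20 in the wild type. Of the helicases, DBP2, which also acts on mRNA, had 10.72, 10.90, 10.63, 10.34, 10.00, 9.85 and 9.74 in the mutant, against 11.27, 11.11, 10.62, 9.96, 9.53, 9.66 and 10.23 in the wild type. At 5 min it stood above its start in the mutant and 0.15 below it in the wild type, and its low point came at 45 min in the mutant and at 25 min in the wild type. HAS1 followed the same order, with lowest changes of -0.43 at 45 min in the mutant and -1.27 at 25 min in the wild type.

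The 8 members called in the mutant were DBP2 (-1.03 ± 0.14, adjusted p = 0.00199), BMT6 (-1.01 ± 0.14, adjusted p = 0.00273), NOG2 (-0.76 ± 0.11, adjusted p = 0.00749), YTM1 (-0.70), NMD3 (-0.62), REI1 (-0.62), DBP3 (-0.57) and HAS1 (-0.53), from limma with SE. They span helicases, a GTPase, a methyltransferase, Ytm1 of the Nop7-Erb1-Ytm1 complex, the export adaptor Nmd3 and the cytoplasmic Rei1. Of the 12 structural factors of the early particle 0 were called, with a median fitted change of -0.48. The ITS2 and A3 factors had the same median, -0.48, with 1 called. The 8 calls stand beside 10.3% of all tested probe sets, so that no pattern by role is read from them. In the wild type BMT6 had the largest fitted change of all members (adjusted p = 6.1e-05, limma), and the fitted changes of the other 7 genes lay between -1.89 for DBP2 and -1.25 for NMD3. The smallest wild type value of all was -0.50 ± 0.07 for TIF6 (adjusted p = 0.00244, limma), which encodes the factor that keeps free large subunits from joining small ones. TIF6 had 12.46, 12.48, 12.55, 12.40, 12.34, 12.38 and 12.38 in the mutant, against 12.61, 12.60, 12.48, 12.27, 12.16, 12.21 and 12.40 in the wild type. The mutant stayed within 0.12 below its start, and the wild type within 0.45. The mutant count was 2 without the arrays of 10 min and 17 without those of 5 min.

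**Figure D2:**
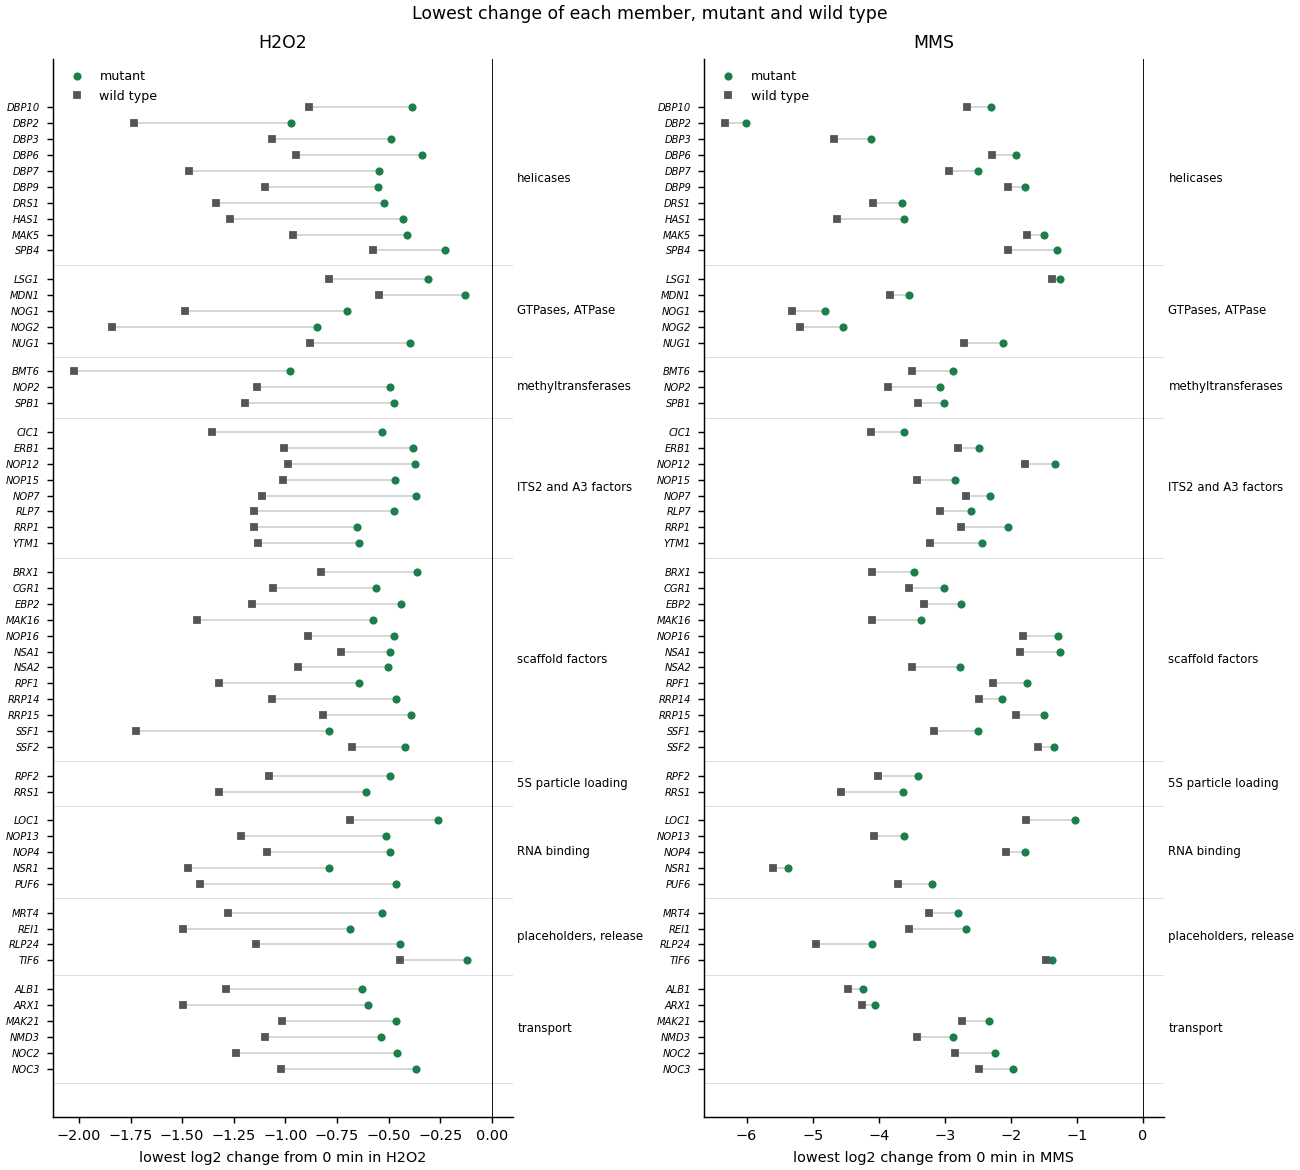
Lowest log2 change from 0 min (x axis) of each of the 55 members (y axis, grouped by role) in H2O2 (left) and MMS (right), 1 array per time point. The mutant (circles) lies closer to 0 than the wild type (squares) for all 55 members in both courses.

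The paralogs SSF1 and SSF2, which share a role in the early particle, differed in their response. SSF1 had 9.76, 9.46, 9.14, 9.12, 8.97, 9.19 and 9.44 in the mutant, against 9.79, 9.44, 8.45, 8.07, 8.62, 9.06 and 9.38 in the wild type. SSF2 had 9.78, 9.57, 9.36, 9.42, 9.50, 9.49 and 9.55 in the mutant, against 9.56, 9.44, 9.08, 8.88, 9.01, 9.45 and 9.42 in the wild type. The lowest change of SSF1 was -0.79 in the mutant and -1.73 in the wild type, and that of SSF2 was -0.42 in the mutant and -0.68 in the wild type. Probe sets of such close paralogs can share signal, and the share was not measured.

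The lowest H2O2 change was closer to 0 in the mutant for every member, but only 2 differences passed the test of the strains against each other. Mutant minus wild type of the fitted curves was positive for all 55 members at its largest point, with a median of 0.71. BMT6 (1.17 ± 0.18, adjusted p = 0.0393) and NOG2 (1.08 ± 0.17, adjusted p = 0.0452) were called by limma, against 0.227% of all tested probe sets called in this direction, and 26 members had an unadjusted p under 0.05, as did 19.5% of all. DBP2 (1.06 ± 0.20) and HAS1 (0.87 ± 0.15) followed, with adjusted p = 0.0753 and 0.074. The lowest change in the mutant was a median 43.6% of that in the wild type, between 23.6% for MDN1 and 67.3% for NSA1. Neither call was left when the arrays of 10, 15, 25, 35 or 45 min were taken out, and 7 members were called without those of 5 min. Over all tested probe sets the change at 15 min had an SD of 0.442 in the mutant and 0.633 in the wild type. The mutant's changes thus spread less over the whole array too.

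**Figure D3:**
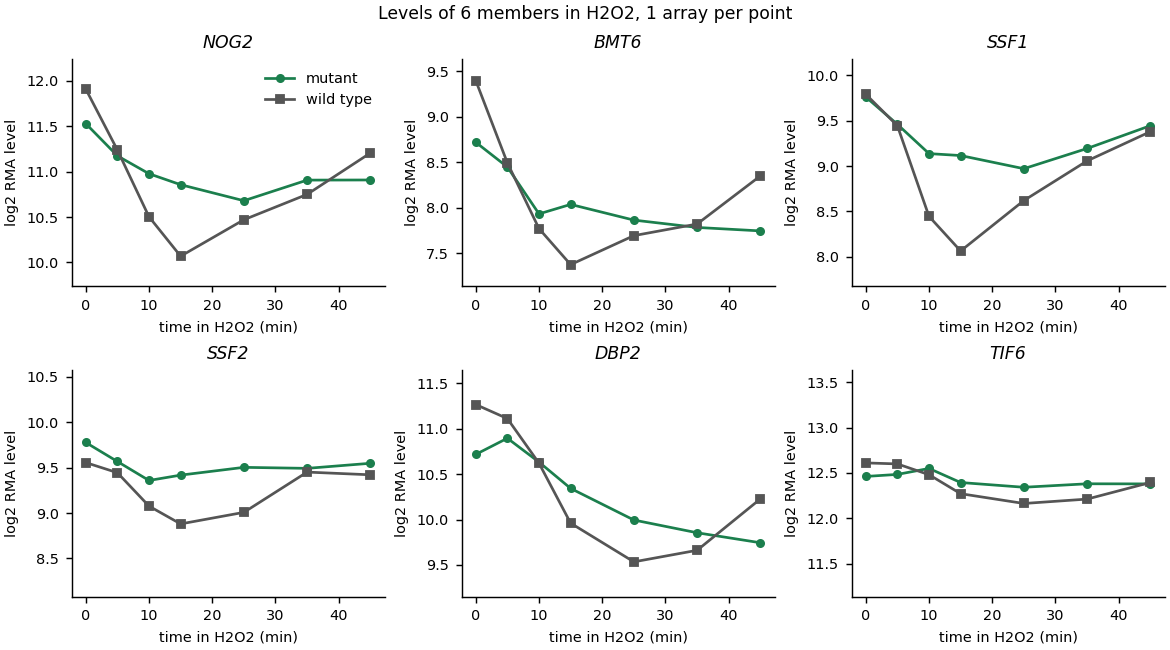
Log2 RMA level (y axis, each panel spans the same range of 2.5) by time in H2O2 in min (x axis) for 6 members in the mutant (circles) and the wild type (squares), 1 array per point. At 15 min the mutant stood at 10.86 and the wild type at 10.07 for NOG2, and at 9.12 and 8.07 for SSF1.

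The median lowest change by role lay between -0.40 (GTPases and ATPase) and -0.55 (5S particle) in the mutant and between -0.88 and -1.21 in the wild type. Single helicases ran from -0.97 to -0.23 in the mutant and from -1.73 to -0.57 in the wild type. In a list of 40 other 60S assembly factors, 12 were called lower in H2O2 in the mutant with a median of -0.47, and 39 in the wild type with a median of -0.90. In the 54 genes of the small subunit processome, the particle that makes the 40S subunit, 12 were called lower in the mutant with a median of -0.51, and 54 in the wild type with a median of -1.19. By contrast, of 82 probe sets for large subunit ribosomal proteins 0 were called in the mutant by limma (0 also at an unadjusted p under 0.05) with a median of -0.03, and 7 were called lower in the wild type with a median of -0.10.

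MMS, an alkylating agent that damages DNA, lowered all 55 members in both strains. The changes were larger than in H2O2, a comparison without a test since the arrays of H2O2, MMS and decay may have been normalized apart. All 55 were called lower in the mutant, against 38.6% of all tested probe sets, and in the wild type, against 41.0%. The median fitted change was -2.75 in the mutant and -3.34 in the wild type. The lowest value came at 80 min for 46 members in the mutant and 44 in the wild type, when 54 members in the mutant and 55 in the wild type were over 2-fold lower than at 0 min, against 14.8% and 16.8% of all probe sets. At 180 min the median member kept 53.3% of its lowest change in the mutant and 52.5% in the wild type.

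DBP2 was lowered most. It had 12.86, 11.90, 10.36, 7.77, 7.02, 6.85, 6.96 and 7.59 in the mutant over 0 to 180 min of MMS, against 12.95, 11.98, 9.64, 7.34, 6.62, 6.66, 6.79 and 7.36 in the wild type. Its lowest level was 64.6-fold below 0 min in the mutant and 80.6-fold below in the wild type, and at 180 min it kept 87.6% of that change in the mutant and 88.3% in the wild type. NSR1, the nucleolin-like protein of the nucleolus, had 12.96, 11.86, 8.87, 7.58, 8.46, 8.60, 9.32 and 9.39 in the mutant, against 13.18, 11.28, 8.60, 7.58, 8.16, 8.34, 8.88 and 9.10 in the wild type, the same low point in both strains. NOG1 and NOG2 were next, with fitted changes of -4.83 and -4.56 in the mutant and of -5.57 and -5.29 in the wild type.

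MDN1 was the only member still at its lowest at 180 min in both strains. It had 13.10, 12.91, 12.27, 10.91, 10.27, 9.88, 9.80 and 9.56 in the mutant, against 13.08, 12.92, 12.15, 10.51, 9.91, 9.48, 9.43 and 9.25 in the wild type. At the other end LOC1, an RNA-binding protein that also takes part in the localization of ASH1 mRNA, had 11.54, 11.28, 10.51, 10.56, 10.79, 10.94, 10.97 and 11.28 in the mutant, against 11.96, 11.15, 10.19, 10.41, 10.68, 10.95, 11.19 and 11.77 in the wild type. LOC1 was therefore lowest already at 40 min and kept 26.1% of its change in the mutant and 10.4% in the wild type at 180 min. RPF1 likewise kept 11.2% in the mutant and 15.1% in the wild type. SSF1 and SSF2 differed again, with lowest changes of -2.50 and -1.35 in the mutant and of -3.17 and -1.58 in the wild type.

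Among the roles, the lowest change in MMS had its furthest median for the GTPases and ATPase in the mutant, at -3.54, and for the 5S particle factors in the wild type, at -4.30, and its nearest for the structural factors of the early particle in the mutant, at -2.32, and for the helicases in the wild type, at -2.81. RRS1, which brings the 5S particle in together with Rpf2, had a fitted change of -3.99 in the mutant and -4.83 in the wild type, and RLP24, which holds the place of the ribosomal protein Rpl24, of -4.22 in the mutant and -5.14 in the wild type. TIF6 was again among the least changed, with 13.01, 12.86, 12.06, 11.64, 11.68, 11.87, 11.83 and 11.95 in the mutant, against 13.20, 12.83, 12.02, 11.73, 11.90, 11.98, 12.07 and 12.21 in the wild type. Its mutant level lay below that of the wild type from 80 min on, whereas NOG2 and SSF1 lay above it at those times.

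The lowest change in MMS was closer to 0 in the mutant for all 55 members. The mutant reached a median 84.8% of the wild type's lowest change, between 58.6% for LOC1 and 96.0% for NSR1, against a median of 43.6% in H2O2. On the log2 scale the strains lay nearly as far apart, by a median of 0.51 in MMS and 0.63 in H2O2. Over all tested probe sets the change at 80 min had an SD of 1.18 in the mutant and 1.29 in the wild type. In the test of the strains 1 member was called, against 1.8% of all tested probe sets called in this direction, namely NOG2 at 0.95 ± 0.16 (adjusted p = 0.0348, limma), and 10 had an unadjusted p under 0.05, as did 18.7% of all. NOG2 had 12.63, 10.56, 8.90, 8.08, 8.78, 9.10, 9.79 and 10.03 in the mutant, against 13.01, 10.60, 8.66, 7.81, 8.19, 8.57, 9.04 and 9.46 in the wild type, so that the mutant was the higher strain from 40 min on. HAS1 had the largest value, 1.16 ± 0.34, with adjusted p = 0.211, and SSF2 the only negative one, -0.45 ± 0.22 with adjusted p = 0.264. NOG2 was not called when the spline had 2 degrees of freedom or when the arrays of 20, 40, 80, 100, 120 or 140 min were taken out, and it was called without those of 180 min.

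In MMS the list of 40 other assembly factors had 39 called lower in each strain, with medians of -1.89 in the mutant and -2.40 in the wild type, and the processome list had 54 of 54, with medians of -2.31 in the mutant and -2.84 in the wild type. Of the 82 ribosomal protein probe sets 77 were called lower in the mutant with a median of -0.76, and 80 in the wild type with a median of -0.96. Across the 55 members the lowest changes in H2O2 and MMS went together, with r = 0.56 and rho = 0.51 in the mutant and r = 0.63 and rho = 0.65 in the wild type. This is a description over genes that are no independent replicates. The genes share arrays within a course, and each gene was read by the same probe set in both courses.

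The first 7 min of H2O2 could be read a second time in the decay cultures, where H2O2 was given before phenanthroline. Against the 0 min array of the reference decay, all 55 members were lower in the mutant, where 69.3% of all tested probe sets were, and 54 in the wild type, against 64.0%. The median difference was -0.17 in the mutant and -0.42 in the wild type, with no test since each value rests on 2 arrays. BMT6 had 7.39 with H2O2 and 7.81 without it in the mutant, and 7.88 and 9.26 in the wild type. NOG2 had 10.57 and 10.98 in the mutant and 11.02 and 12.06 in the wild type, and SSF1 8.34 and 8.95 in the mutant and 8.66 and 9.77 in the wild type. These 3 genes were the only members over 2-fold lower in the wild type, against 0.805% of all probe sets, and no member was in the mutant, against 0.332%.

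After transcription was arrested without H2O2, slopes relative to the average mRNA were below 0 for 53 members in the mutant and 55 in the wild type. Of all 5716 tested probe sets, 2889 in the mutant and 2607 in the wild type had slopes below 0. The members' slopes were less steep in the mutant. At 50 min of the reference decay the median change from 0 min was -1.65 on the log2 scale in the mutant and -3.08 in the wild type, relative to the average mRNA. The median slope was -0.0326 log2 units per min in the mutant and -0.0653 in the wild type, where 3.80% and 1.57% of all tested probe sets had a lower one. Slopes spread less in the mutant over all tested probe sets too, with an SD of 0.0178 log2 per min against 0.0237 in the wild type. The part of this narrower spread in the members' difference was not tested. Mutant minus wild type, the slope difference was positive for all 55 members with a median of 0.0322 log2 per min, and 50 were called higher by limma, against 17.4% of all tested probe sets. Slopes are those of a straight line for each course, fitted over the 28 decay arrays at once. Without the mutant's arrays of 10 and 20 min 52 members were called, against 18.4% of all.

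**Figure D4:**
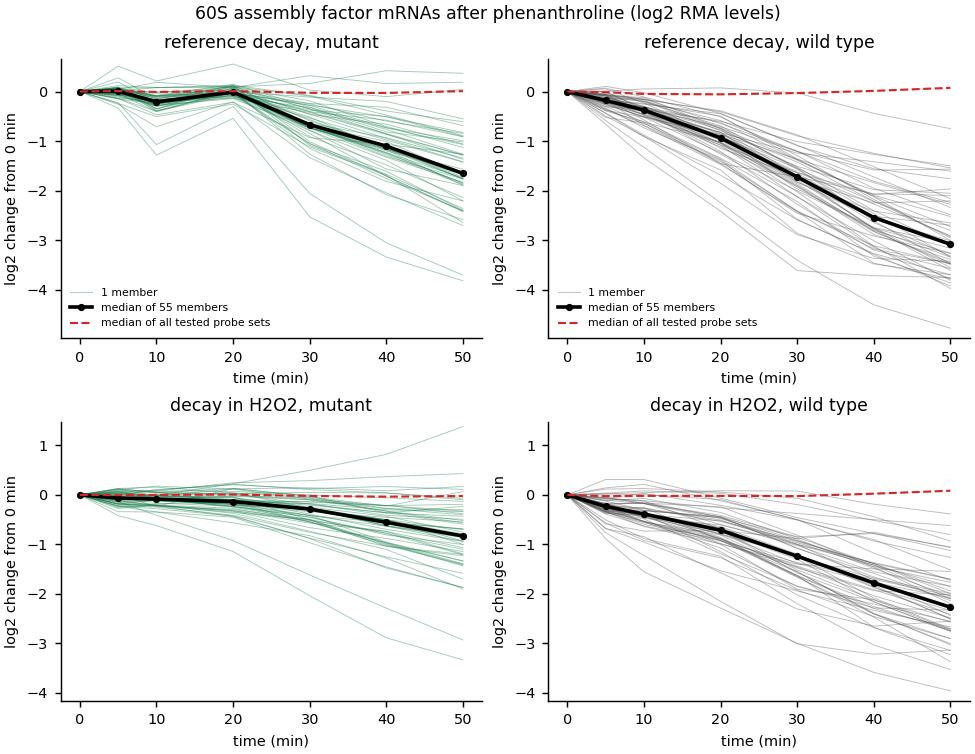
Log2 change from 0 min (y axis) by time after phenanthroline in min (x axis) for the 55 members in the reference decay (top) and after H2O2 (bottom), mutant left and wild type right, 1 array per point. The black median line of the reference decay ends at -1.65 in the mutant and -3.08 in the wild type at 50 min, and the mutant's 20 min array returns to near 0.

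SSF1 had the largest slope difference, 0.0464 ± 0.0052 (adjusted p = 9.2e-07), before YTM1 (0.0447) and NOP13 (0.0421), and RRP14 the smallest adjusted p, 1.1e-08, at 0.038 ± 0.003 (limma). SSF1 had 8.95, 9.15, 8.72, 9.08, 8.28, 7.80 and 7.27 in the mutant over 0 to 50 min, against 9.77, 9.44, 9.04, 8.39, 7.19, 6.49 and 5.85 in the wild type. RRP14, an early nucleolar factor, had 11.61, 11.66, 11.59, 11.70, 11.78, 12.03 and 11.98 in the mutant, against 11.94, 11.64, 11.59, 11.34, 10.93, 10.68 and 10.45 in the wild type. At 50 min it stood above its 0 min level in the mutant and below it in the wild type. MDN1 had 12.24 at 50 min and 12.05 at 0 min in the mutant, and 11.52 at 50 min and 12.27 at 0 min in the wild type.

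The 5 members not called were ALB1, DBP6, TIF6, REI1 and NSR1. ALB1, which travels with the export factor Arx1, had 11.28, 10.94, 9.99, 10.74, 8.75, 7.94 and 7.46 in the mutant, against 11.79, 11.14, 10.46, 9.38, 8.18, 8.08 and 8.05 in the wild type, where it levelled off from 30 min. The straight line does not capture such a course, and ALB1's slope difference of 0.0015 turned negative under several alternatives. TIF6 had a difference of 0.0088 ± 0.0045 with adjusted p = 0.127.

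Half-lives were computed from the authors' linear ratios, which they had scaled so that the mean mRNA decays alike in all courses, so that a difference common to all mRNAs is not visible and a half-life is a relative value with no test. The median over the members was 17.3 min in the mutant and 11.3 min in the wild type in the reference decay, with a median standard error of the fit of 1.96 and 0.725 min. All tested probe sets with R2 above 0.9 had medians of 24.5 min in the mutant and 23.3 min in the wild type. The mutant had the longer value for all 55 members, counted whatever their R2. Of the 4399 probe sets with R2 above 0.9 in both strains 59.6% had it. The members' median ratio of mutant to wild type was 1.56, and 1.43 without the mutant's arrays of 10 and 20 min, where its median was 15.6 min. Among roles the median ran from 15.0 min (5S particle) to 19.6 min (methyltransferases) in the mutant and from 9.62 min (methyltransferases) to 12.4 min (GTPases and ATPase) in the wild type.

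The shortest half-lives belonged to ALB1 (9.43 ± 1.96 min in the mutant, 5.96 ± 0.16 min in the wild type) and NSR1 (11.0 ± 2.4 min in the mutant, 6.57 ± 0.05 min in the wild type), where the error is that of the fit. MDN1 had the longest in the wild type, 22.3 ± 1.9 min, against 30.0 ± 2.2 min in the mutant, and RRP14 the longest in the mutant, 32.3 ± 1.8 min, against 14.2 ± 0.7 min in the wild type. The ratio of mutant to wild type was largest for BMT6, whose half-life was 25.7 ± 5.9 min in the mutant and 9.62 ± 0.79 min in the wild type, and smallest for TIF6, with 15.8 ± 1.6 min in the mutant and 12.9 ± 0.4 min in the wild type. The fit of BMT6 in the mutant was poor, with an R2 of 0.857. Across members the reference half-life of the wild type went with its lowest H2O2 change (r = 0.58, rho = 0.59, 55 genes), longer half-lives lying beside changes closer to 0, and in the mutant r was 0.24 and rho 0.31. The genes share arrays within each strain, and no test was made.

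**Figure D5:**
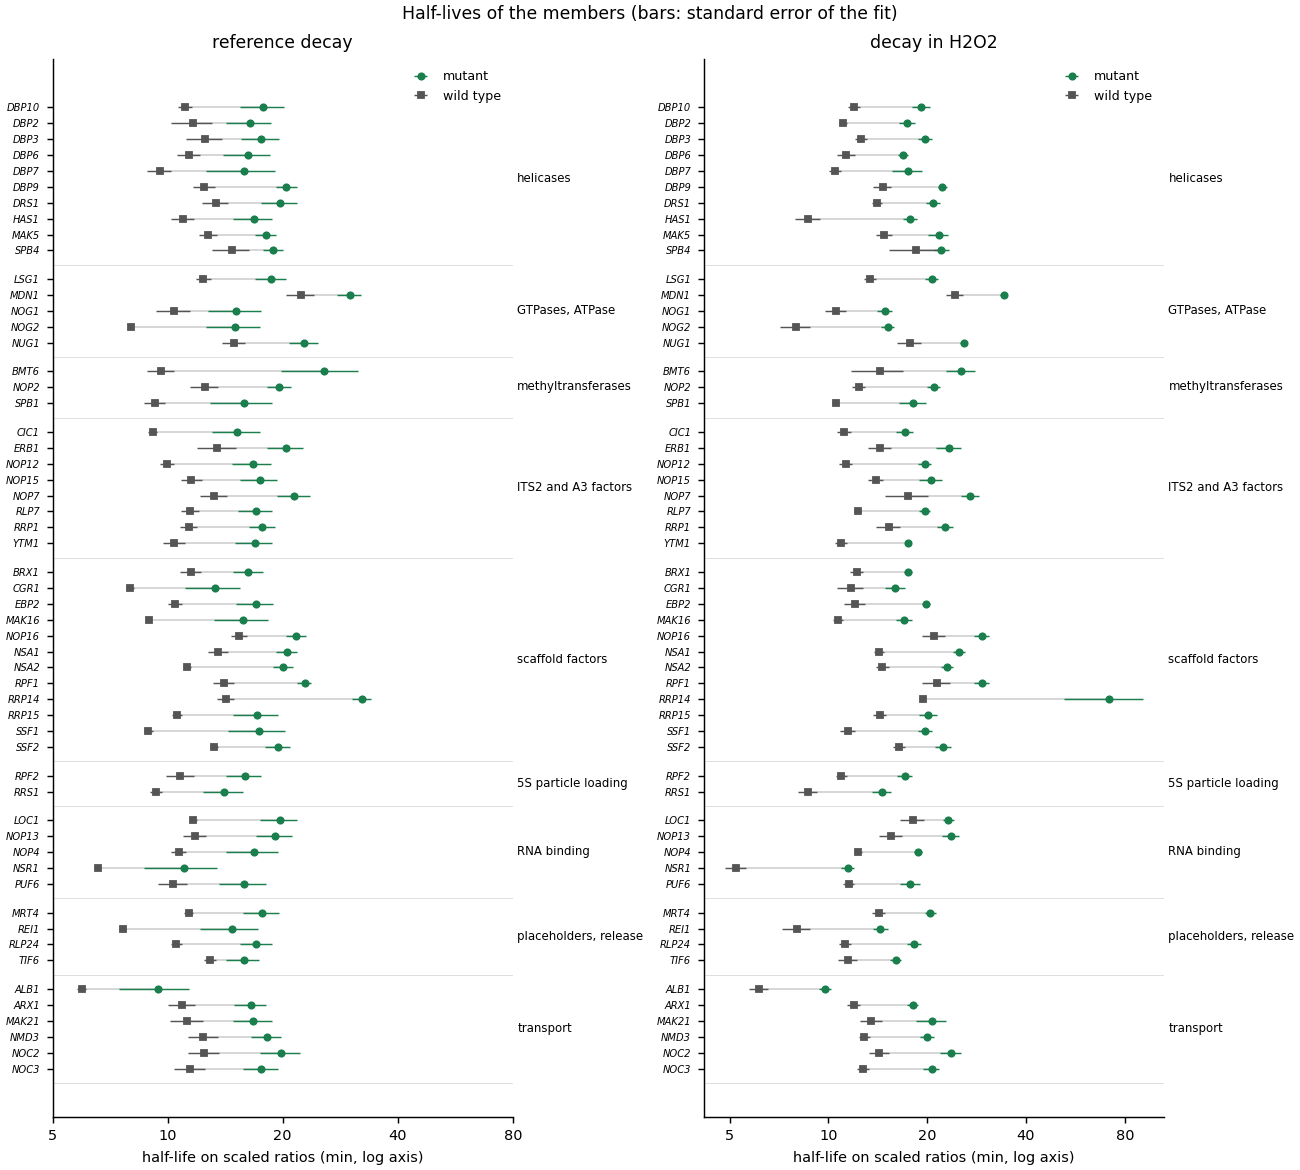
Half-life in min on a log axis (x axis) of each of the 55 members (y axis, grouped by role), from exponential fits to the scaled ratios of the reference decay (left) and of the decay after H2O2 (right). Circles are the mutant, squares the wild type, and bars the standard error of the fit, and the mutant lies to the right of the wild type for all 55 members in both courses.

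When H2O2 came first, slopes were less steep than in the reference in both strains. More of the differences passed the test in the wild type, by a margin that depended on the mutant's reference arrays of 10 and 20 min. The slope after H2O2 minus the reference slope was positive for all 55 members in both strains, with a median of 0.0146 log2 per min in the mutant and 0.0174 in the wild type. Over all tested probe sets the SD of the slopes after H2O2 was 0.0147 in the mutant and 0.0197 in the wild type. In the reference it was 0.0178 in the mutant and 0.0237 in the wild type. In the mutant 7 members were called higher by limma, against 1.33% of all tested probe sets, and in the wild type 31, against 5.35%. The mutant's calls were SSF1 (0.0220 ± 0.0052, adjusted p = 0.0258), EBP2 (0.0199), NOP12 (0.0192), RRP14 (0.0180 ± 0.0030, adjusted p = 0.00224), MRT4 (0.0158), NOP16 (0.0154) and SSF2 (0.0127), 5 of them among the 12 structural factors of the early particle. SSF1 (0.0320 ± 0.0052, adjusted p = 0.000258), BMT6 (0.0283 ± 0.0066, adjusted p = 0.00703) and RPF1 (0.0282 ± 0.0047, adjusted p = 0.000388) led the wild type. There 10 of the 12 structural factors, 5 of the 6 transport factors and 3 of the 10 helicases were called.

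The counts moved with the arrays used. Without the mutant's reference arrays of 10 and 20 min 19 members were called in the mutant, against 2.27% of all, and 40 in the wild type, against 6.47%. With these 2 arrays exchanged 30 were called in the mutant and 37 in the wild type. In that setting 245 of all 5716 probe sets were called higher in the mutant and 366 in the wild type. Taking out single times gave 30 calls in the mutant and 45 in the wild type without 20 min, 0 in the mutant without 50 min and 8 in the wild type without 40 min. The reference courses enter both this comparison and that of the reference slopes, so that these are not independent of each other. The change of slope itself was not called different between the strains for any member (0 by limma, against 0.647% of all tested probe sets), 2 members having an unadjusted p under 0.05 as did 6.95% of all. The largest was BMT6, -0.0221 ± 0.0093 with adjusted p = 0.578, and 40 of the 55 were negative, with a median of -0.0027. Over 0 to 30 min alone 52 of the 55 were negative with a median of -0.0104, again with 0 called by limma (4 at an unadjusted p under 0.05), and the median difference between the slopes was 0.0061 in the mutant and 0.0185 in the wild type. This shorter window holds the mutant's reference arrays of 10 and 20 min, which are out of time order. It was not fitted without them, so that no strain difference is read from it.

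In half-lives the shift was modest. After H2O2 the median member had 19.8 min in the mutant and 12.4 min in the wild type, a median ratio to the reference of 1.12 in each strain. Values were longer for 52 members in the mutant and 47 in the wild type. Of the probe sets with R2 above 0.9 in both courses, 53.4% in the mutant and 57.8% in the wild type had longer values. The ratio in the mutant was 1.21 without its reference arrays of 10 and 20 min. RRP14 had 71.6 ± 19.3 min in the mutant, with an R2 of 0.736, and 19.4 ± 0.1 min in the wild type, and RPF1 had 29.3 ± 1.5 min in the mutant and 21.4 ± 2.1 min in the wild type. NSR1 had 11.4 ± 0.5 min in the mutant, close to its reference value, and 5.23 ± 0.39 min in the wild type, below its reference value of 6.57 min. The mutant again had the longer half-life for all 55 members, with a median ratio of 1.55, against 53.9% of the 4680 probe sets with R2 above 0.9 in both strains.

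The processome list behaved like the members after phenanthroline. Its reference slopes differed between the strains for 50 of 54 genes called higher in the mutant with a median of 0.0327, and 33 of the 40 other assembly factors were called with a median of 0.0178. Of the 82 ribosomal protein probe sets 74 were called higher, with a median of 0.0107. After H2O2, 8 processome genes were called higher in the mutant and 36 in the wild type, and 0 of the other assembly factors in the mutant by limma (24 with an unadjusted p under 0.05) and 14 in the wild type.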

How the data were processed

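Total RNA, with cDNA primed by poly(T), was hybridized to 58 Affymetrix Yeast 2.0 arrays. The deposited log2 levels were made by the authors with RMA. The H2O2, MMS and decay arrays were treated here as 3 sets, since they may have been normalized apart. The authors' log2 fold changes against 0 min were only checked against these levels. For decay, the authors also deposited a linear ratio against the first time, scaled at each time to a common mean decay. Genes were named through GEO's platform annotation and RefSeq. Of 10928 probe sets 5716 of S. cerevisiae were tested, 5498 with 1 gene, and 184 controls were left out.

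limma 3.58.1 (R 4.3.3) gave 11 tests, adjusted by Benjamini-Hochberg at 0.05: the untreated strains with experiment as a block, splines in H2O2 and MMS with their strain contrasts, and decay slope contrasts over 28 arrays. The error of a course is its scatter about the fitted curve, there being no replicate cultures among these arrays, and p-values measure only that scatter. Half-lives came from an exponential with a free start (scipy 1.17.1). Both were also run on simulated data with independent noise and all arrays in time order. Those runs do not show how the fits fare with arrays out of order. Same-numbered 0 min arrays share an experiment and correlate at 0.661, 0.818 and 0.737 after removal of strain means, so experiment is a block.

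The members and lists were chosen with earlier results of these data known. Named genes are the 3 largest calls per test and direction, fixed examples and members of opposite sign. Others (RRP14, RPF1, LOC1 and ALB1 among them) were chosen after their values were seen. Sequences were not used.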

Additional observations from a re-analysis of the deposited data

Results flagged for a closer look

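The response of BMT6 to H2O2 differed between the strains, with a fitted difference of 1.17 on the log2 scale, mutant minus wild type. NOG2 differed in H2O2 by 1.08 and in MMS by 0.95, again with the smaller change in the mutant. The MMS call was 1 of the 55 members, against 1.8% of all tested probe sets called in this direction. The H2O2 calls and the MMS call were lost with a spline of 2 degrees of freedom. They were also lost when the arrays of most single times were taken out. BMT6 and NOG2 were also among the members with the largest untreated differences, where the mutant was lower by 0.78 and 0.61 without passing the test. The slope of the reference decay differed between the strains by a median of 0.0322 log2 units per min over the 55 members, the mutant's being less negative. The part of growth rate, of culture and of the mutant's narrower spread over all probe sets in these differences was not tested.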

How the results depend on the processing

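With a prior that follows intensity, 4 members were called in the untreated strains, 15 in the H2O2 course of the mutant and 4 in its strain difference, and with quantile normalization repeated 13 were called in the mutant's H2O2 course. A spline with 2 degrees of freedom called 0 members in the strain differences of H2O2 and of MMS. For the decay slope after H2O2 minus the reference, the count was 0 in the mutant and 6 in the wild type over 0 to 30 min. Without the mutant's reference arrays of 10 and 20 min it was 19 in the mutant and 40 in the wild type. With these exchanged it was 30 in the mutant and 37 in the wild type. A line through log2 ratios gave a median reference half-life of 14.0 min in the mutant and 9.62 min in the wild type, where the exponential gave 17.3 min in the mutant and 11.3 min in the wild type. Leaving out single time points gave 2 to 17 calls in the H2O2 course of the mutant, 0 to 7 in the H2O2 strain difference, 0 to 1 in that of MMS, 0 to 30 for the decay difference in the mutant and 8 to 45 in the wild type. The wild type difference of TIF6 turned to -0.00222 log2 per min over 0 to 30 min, and the reference slope difference of ALB1 to -0.000162 without the mutant's arrays of 10 and 20 min and to -0.00204 with these exchanged, with -0.00678 to 0.0187 over single times left out. Without the block for experiment, which pairs the untreated arrays, 0 members were called. Over the named genes, 683 of 798 alternatives kept direction and call, 90 lost the call, 18 gained it and 7 changed sign. The causes of these changes were not tested. Choosing the brightest probe set was not run, since each member has 1. The half-life without the mutant's arrays of 10 and 20 min was chosen after seeing the data. The number of arrays and the want of replicate cultures among them limit the precision. All 55 members lay above the S. pombe level in every array, and whether background compresses the lowest values was not tested.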
